A study of Mus musculus with 11 samples.

Results

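The PRAME-like genes are a family of the mouse genome named after PRAME, a human tumour antigen of the germline. They were taken here as every gene of the bulk count table whose symbol begins with Pramel or Pramef, which gave 48 members of 48952 genes, all of them named Pramel. The single-cell feature list held 32285 genes, and all 48 members were matched to it, 45 by gene identifier and 3 by an older symbol or the same coordinates. The list shows 6 of them under the same symbol and the others under older names such as Pramef8 for Pramel12 or Gm13119 for Pramel31. Over the 9 bulk libraries together, 29 members had at least 1 read and 19 had none. Of these 29, 11 had 1 to 9 reads and 18 had 10 or more. With the single-cell barcodes added, where 30 members had at least 1 unique molecular identifier (UMI), 36 members had a read or a UMI and 12 had neither.

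PRAME-like proteins are built of leucine-rich repeats, and members of the PRAME family serve as substrate receptors of CUL2 ubiquitin ligases, which mark other proteins for degradation. Pramel7 is known from the inner cell mass and from naive embryonic stem (ES) cells, where it promotes the degradation of UHRF1, a protein that keeps DNA methylation in place through cell division, and where its transcription responds to LIF and STAT3. Pramel6 is likewise high in naive ES cells, Pramel1 is best known from the germline, and several members are transcribed in the 2-cell embryo. Cells of ES cultures that transiently express Zscan4 and other genes of that stage are called 2-cell-like.

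The samples were mouse naive extra-embryonic endoderm (nEnd), cells that renew in culture in a state like that of the early primitive endoderm, kept on feeder cells in a medium with Activin A, CHIR99021 and LIF. Bulk RNA-seq covered untreated nEnd of an OCT4-mCherry reporter line. It was sorted as DAPI-negative cells into a PDGFRA-positive population without the reporter (Pdgfra+), a population positive for both (DP) and a population positive for the reporter only (Oct4+), the last described by the study as de-differentiated towards the epiblast. Each population had 3 libraries, which the study describes as biological replicates. The labels do not say whether they came from separate cultures, and p-values measure the spread between these libraries. Droplet single-cell RNA-seq covered Oct4LOF nEnd (line EPUc), in which 4-hydroxytamoxifen (4OHT) deletes Oct4 (Pou5f1). PDGFRA-positive cells of this line had been sorted and then cultured without 4OHT (-4OHT) or with it (+4OHT), with 1 library of each. Each experiment thus rests on 1 cell line.

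Bulk libraries held 8019631 to 11642571 reads. Pou5f1 stood at 17.5 CPM (reads per 1000000 reads of the TMM-scaled library) in Pdgfra+, 229 in DP and 981 in Oct4+ on average, and Pdgfra at 729, 590 and 7.43 CPM. All 11 endoderm markers (Gata6, Sox17, Col4a1, Pdgfra itself and others) were detected in the PDGFRA-positive populations, at a summed level of 32600 to 58400 CPM against 333 to 748 CPM in Oct4+. The feeder markers summed to 8.31 to 150 CPM in Oct4+ and to 1.34 to 13 CPM in Pdgfra+ and DP. The single-cell libraries held 6896 and 7283 barcodes, of which 5152 (-4OHT) and 6298 (+4OHT) cells were used, with a median of 17667.5 and 12645.5 UMIs. They shared 21 barcodes. Pou5f1 stood at 40.6 UMI CPM (UMIs per 1000000 UMIs of the cells) without and 2.47 with 4OHT.

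The members lie in a few arrays of neighbouring copies, and how far a read can tell them apart differs between the arrays. In the GENCODE annotation of GRCm38, 26 members lie on chromosome 4, 18 on chromosome 5, 2 on chromosome 2 and 1 each on chromosomes 12 and X. The chromosome 2 pair, Pramel7 and Pramel6, spans 87489087 to 87510872, the chromosome 4 members lie between 88627320 and 144408464 and those of chromosome 5 between 93481829 and 95736173. Of all windows of 50 bases in a member's annotated transcripts, the median share found in no other gene was 99.3% on chromosome 2, 64.1% on chromosome 4 and 8.98% on chromosome 5, where 4 of 18 members had no such window. Reads reached 2 of 2, 23 of 26 and 2 of 18 members in the same order.

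**Figure D1:**
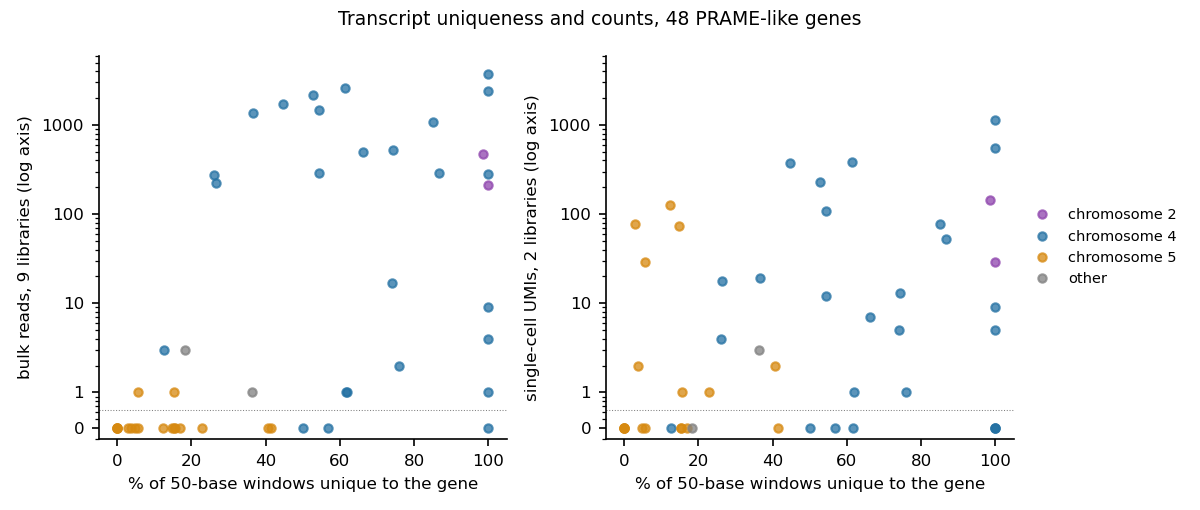
Each point is 1 of the 48 PRAME-like genes, placed by the percent of its 50-base transcript windows found in no other gene (x axis) and by its reads over the 9 bulk libraries (left) or its UMIs over all barcodes of both single-cell libraries (right), the latter on log axes with 0 below the dotted line. The 18 chromosome 5 genes lie at the left, all under 50% unique, with 2 bulk reads in all but 312 UMIs.

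The chromosome 5 array was nearly without reads in the bulk table and had UMIs in the single-cell tables. Its 18 members had 2 reads in total, 1 each for Pramel33 and Pramel40, and 312 UMIs over all barcodes, 8 members with any and 4 with 10 or more. Pramel44 had 117 UMIs in -4OHT and 8 in +4OHT, Pramel41 had 71 and 3, Pramel39 had 62 and 16, and Pramel40 had 28 and 1. Across the family, 7 members without a bulk read had a UMI. How reads that match several genes were counted in the bulk data is not given in the sources used here, and its part in this difference was not tested. Values of members that share sequence are uncertain in that sense. Among the tested members, the share of windows found in no other gene was lowest in Pramel30 (26.2%), Pramel14 (26.5%), Pramel16 (36.5%) and Pramel20 (44.7%). Pramel14 and Pramel30 share 73.5% and 73.8% of their windows with each other, and Pramel18 and Pramel19 44.6% and 44.7%. Pramel20 shares 49.6% with Gm13040. Pramel13os, an antisense gene of Pramel13, had 4 reads, and whether strand was used in counting is not given either.

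Promoters are shown for the members whose values separate from the rest of the family below. The windows are the 250 bases before the start of transcription in RefSeq (GRCm38), and 37 members had an entry. For Pramel7 and Pramel20 the window lies inside the GENCODE gene, which begins further upstream, at 87497093 and 143551700. Which start was in use in these cells was not tested. Among the 15 compared, the median identity of 105 pairs was 50.2%, and 5 pairs reached 70% or more. Pramel7, on chromosome 2 (chr2:87492419-87492668, minus strand), was 78.8% identical to Pramel14 (chr4:143994370-143994619, minus strand) and 77.6% identical to Pramel30 (chr4:144329999-144330248, plus strand), which were 97.2% identical to each other. With Pramel12, these are the tested members that were not past the threshold between DP and Oct4+. Capitals mark the runs of 12 or more bases found in all 3 promoters.
Pramel7: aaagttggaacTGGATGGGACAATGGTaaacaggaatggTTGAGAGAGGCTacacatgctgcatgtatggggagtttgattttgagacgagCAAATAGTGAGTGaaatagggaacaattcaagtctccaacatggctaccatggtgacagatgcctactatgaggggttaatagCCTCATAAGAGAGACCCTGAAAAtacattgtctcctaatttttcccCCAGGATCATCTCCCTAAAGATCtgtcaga
Pramel14: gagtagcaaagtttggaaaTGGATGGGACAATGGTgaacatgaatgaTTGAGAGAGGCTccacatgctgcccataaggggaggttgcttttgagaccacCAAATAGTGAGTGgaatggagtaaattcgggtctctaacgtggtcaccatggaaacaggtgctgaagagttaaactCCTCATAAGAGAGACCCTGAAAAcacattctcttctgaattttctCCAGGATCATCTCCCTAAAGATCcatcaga
Pramel30: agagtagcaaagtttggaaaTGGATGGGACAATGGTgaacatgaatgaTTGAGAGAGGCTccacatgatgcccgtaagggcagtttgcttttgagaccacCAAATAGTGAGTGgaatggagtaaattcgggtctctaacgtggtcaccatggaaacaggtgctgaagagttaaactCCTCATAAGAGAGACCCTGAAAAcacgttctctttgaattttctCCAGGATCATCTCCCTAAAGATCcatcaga
The 23-base run near the start of transcription, CCAGGATCATCTCCCTAAAGATC, occurs in these 3 of the 32851 promoters.

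Pramel20 (chr4:143567217-143567466, plus strand) and Pramel31 (chr4:144357714-144357963, plus strand), whose UMIs lay mostly in Zscan4-positive cells, were 72.3% identical, and capitals mark the runs of 12 or more bases that both hold.
Pramel20: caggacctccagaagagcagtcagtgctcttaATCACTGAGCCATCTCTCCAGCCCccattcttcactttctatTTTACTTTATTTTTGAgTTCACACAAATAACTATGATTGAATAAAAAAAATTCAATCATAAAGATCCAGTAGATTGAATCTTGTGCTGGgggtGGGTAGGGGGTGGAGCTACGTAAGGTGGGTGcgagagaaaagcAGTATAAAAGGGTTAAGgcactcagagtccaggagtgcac
Pramel31: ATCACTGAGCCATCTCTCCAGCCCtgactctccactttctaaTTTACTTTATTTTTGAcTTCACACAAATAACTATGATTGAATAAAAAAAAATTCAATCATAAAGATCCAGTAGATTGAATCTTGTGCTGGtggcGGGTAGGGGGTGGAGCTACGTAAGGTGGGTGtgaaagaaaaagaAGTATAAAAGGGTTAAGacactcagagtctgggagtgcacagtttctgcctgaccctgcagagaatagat
Both hold a TATA box (TATAAA) and a match to GATTNAATC, the core of the motif bound by DUX, an activator of 2-cell genes. This motif was searched after the sequences had been seen, on both strands like all others. It occurs in 0.247% of all 32851 promoters and in 3 of the 37 member promoters, the third being Pramel17. TATAAA occurs in 12 of 37 against 12.4% of all promoters, and AGATAA, the core of the GATA motif, in 8 of 37 against 9.99%. Of the 14 promoters of members that passed the filter on low counts, 2 hold TATAAA and 3 hold AGATAA. No member promoter holds the octamer ATGCAAAT (1.60% of all), the ESRRB motif TCAAGGTCA (0.387%) or the STAT motif TTCNNNGAA (7.02%) in this window. Member promoters are poor in CpG, with a median of 1 CpG per window against 6 over all promoters, and 35 of 37 hold 5 or fewer against 49.6% of all promoters.

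Summed over the family, the level was highest in Oct4+ in every library. The sums were 323, 473 and 816 CPM in Oct4+ replicates 1 to 3, 65.1, 72.5 and 80.5 CPM in DP and 56.5, 51.7 and 45.6 CPM in Pdgfra+, with no overlap between the populations. Oct4+ was 9.78-fold above Pdgfra+, and DP 1.42-fold. For each pair the exact permutation test, two-sided, gave p = 0.1, the smallest that 3 against 3 libraries allow. Pramel12 alone made 81.0% of the sum in Pdgfra+ and 49.0% in DP. Without it the sums were 9.77 ± 5.47 CPM in Pdgfra+, 37.1 ± 13.5 in DP and 484 ± 249 in Oct4+ (SD, n = 3). A bulk value cannot tell more expressing cells from more RNA per cell.

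**Figure D2:**
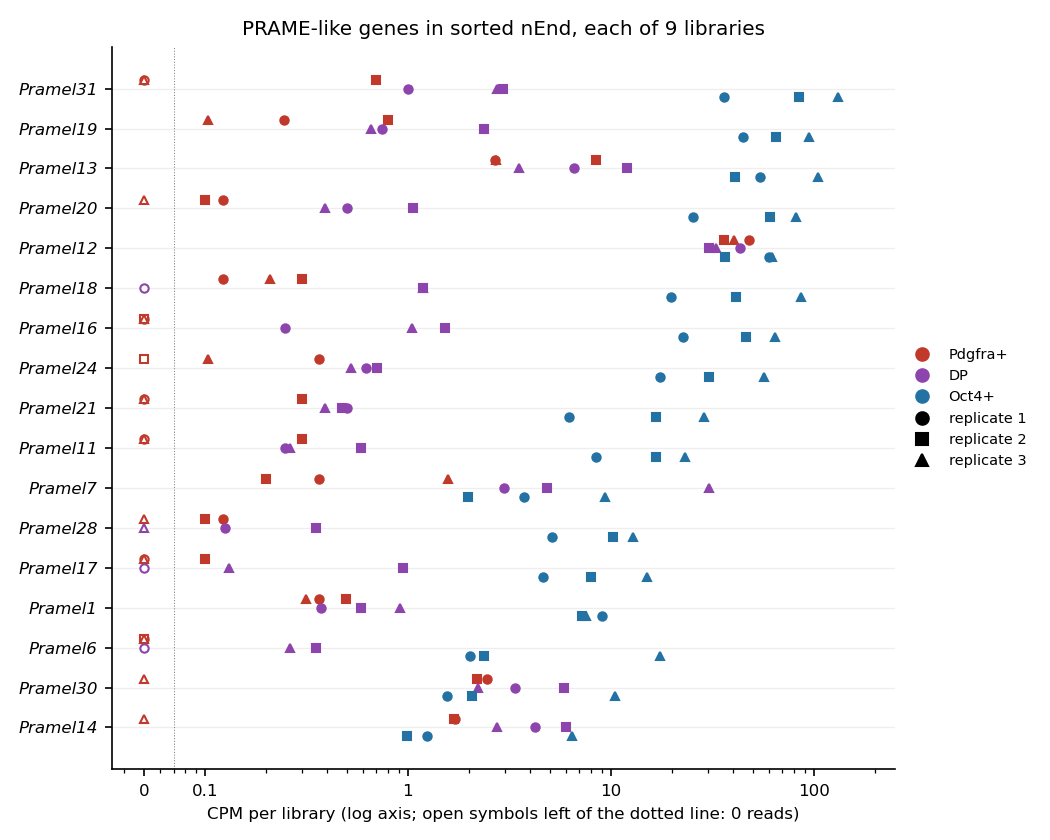
CPM of the 17 tested PRAME-like genes in each bulk library on a log axis, coloured by population with a symbol per replicate number and with 0 reads left of the dotted line. In Oct4+ replicate 3 (blue triangles) 16 of the 17 genes have their highest Oct4+ value, Pramel12 overlaps between all populations, and the highest value of Pramel7 is that of DP replicate 3, the other DP libraries lying among those of Oct4+.

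Oct4+ against Pdgfra+ asks how de-differentiated cells differ from committed endoderm. A gene was past the threshold at an adjusted p under 0.05 and a log2 fold change beyond 1.5 in edgeR's quasi-likelihood test over 14185 genes. Of the 17 members that passed the filter on low counts, 14 were higher in Oct4+ and none lower, where 17.3% of all genes tested were higher and 14.7% lower. The same 14 had no overlap between the libraries, against 69.3% of all genes. The median log2 fold change was 7.16 over the 17 members, or 7.06 with the members without reads in Pdgfra+ set to their lower bound, and 0.01 over all genes. The other 31 members did not pass the filter, and all but Pramel5 (17 reads) had under 10 reads. The filter keeps a gene that is high in any 1 population. Members such as Pramel16, with 0 reads in Pdgfra+, 23 in DP and 1345 in Oct4+, passed it through Oct4+. The count of members and their median are therefore partly set by the filter.

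The members with the highest levels in Oct4+ were close to absent from Pdgfra+. Pramel31 was at 36.0, 84.2 and 132 CPM in Oct4+ replicates 1 to 3 and at 0, 0.697 and 0 CPM in Pdgfra+ (log2 fold change 8.32, SE 0.847, edgeR adjusted p 2.53e-05). Pramel19, a known 2-cell gene, was at 44.7, 65.1 and 95.1 CPM against 0.244, 0.797 and 0.104 CPM (7.39, SE 0.619, edgeR adjusted p 8.25e-06). Pramel13 was at 54.6, 40.7 and 105 CPM against 2.69, 8.47 and 2.71 CPM (3.83, SE 0.589, edgeR adjusted p 0.000313). In all 3 genes every Oct4+ library lay above every Pdgfra+ library, and Pramel13 kept 2.69 CPM or more in Pdgfra+, where the others had under 1 CPM.

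Pramel20 was at 25.3, 61.1 and 81.5 CPM in Oct4+ and had 2 reads in the 3 Pdgfra+ libraries together, a ratio of 729 (95% counting interval 202 to 6030, edgeR adjusted p 5.17e-06). Pramel18 was at 19.8, 41.4 and 86.1 CPM against 0.122, 0.299 and 0.209 CPM (log2 fold change 7.75, SE 0.881, edgeR adjusted p 4.75e-05). Pramel16, another gene of the 2-cell embryo, was at 22.6, 46.5 and 64.4 CPM and had no read in Pdgfra+, so that it was at least 389-fold higher in Oct4+ against a floor of 3 reads over the 3 libraries (edgeR adjusted p 3.37e-05). None of these genes overlapped between the populations.

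The next members down had the same order of populations at lower levels. Pramel24 was at 17.4, 30.6 and 56.5 CPM in Oct4+ against 0.366, 0 and 0.104 CPM (7.78, SE 0.705, edgeR adjusted p 1.31e-05), Pramel21 at 6.20, 16.6 and 28.8 CPM against 0, 0.299 and 0 CPM, and Pramel11 at 8.45, 16.7 and 23.1 CPM against the same 0, 0.299 and 0 CPM. Pramel21 and Pramel11 had 3 Pdgfra+ reads each, for ratios of 147 (50 to 714) and 140 (47.8 to 684). Pramel28 was at 5.12, 10.2 and 12.9 CPM and Pramel17 at 4.65, 7.99 and 15 CPM in Oct4+, with 2 and 1 reads in Pdgfra+ and ratios of 124 (33.9 to 1030) and 239 (42.6 to 9490). All 4 were past the threshold (edgeR adjusted p between 4.4e-05 and 0.000273).

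Pramel1, Pramel6 and Pramel7 completed the 14. Pramel1 was the most even across Oct4+, at 9.07, 7.20 and 7.54 CPM against 0.366, 0.498 and 0.313 CPM (4.29, SE 0.421, edgeR adjusted p 2.07e-05). Pramel6 was at 2.02, 2.37 and 17.5 CPM, 8.69-fold between its lowest and highest Oct4+ library, with no read in Pdgfra+, so that it was at least 60.1-fold higher (edgeR adjusted p 0.00223). Pramel7 was at 3.72, 1.97 and 9.31 CPM against 0.366, 0.199 and 1.57 CPM (2.77, SE 1.07, edgeR adjusted p 0.0433). Its call was lost without Oct4+ replicate 1 or 3 (adjusted p 0.0612 and 0.15 by edgeR) and without Pdgfra+ replicate 1 or 2 (adjusted p 0.114 and 0.125 by edgeR).

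Pramel12, Pramel14 and Pramel30 did not pass. Pramel12 was at 59.8, 36.6 and 62.2 CPM in Oct4+ and at 48, 36 and 40.6 CPM in Pdgfra+ (log2 fold change 0.35, SE 0.227, edgeR adjusted p 0.202), with the groups overlapping. Pramel14 averaged 2.88 ± 3.07 CPM in Oct4+ and 1.13 ± 0.982 CPM in Pdgfra+ (1.32, SE 0.968, edgeR adjusted p 0.254), and Pramel30, its near copy, 4.72 ± 5.04 and 1.54 ± 1.34 CPM (1.60, SE 1.0, edgeR adjusted p 0.188), all as SD with n = 3. Pdgfra+ replicate 3 had no read of either. Without Oct4+ replicate 3 the log2 fold change of Pramel14 was -0.016.

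The order of members by level changes once transcript length is divided out. Per kilobase of exon, Pramel19 was highest in Oct4+ at 47.0 ± 17.4 CPM per kb, followed by Pramel31 (40.1 ± 22.9), Pramel18 (33.7 ± 23.2), Pramel16 (26.4 ± 12.5), Pramel20 (26.2 ± 13.3) and Pramel13 (25.9 ± 13), neighbours that lie within each other's SD (n = 3). Pramel12 was at 12.7 ± 3.4 CPM per kb in Oct4+ but first in both endoderm populations, at 9.94 ± 1.45 in Pdgfra+ and 8.52 ± 1.62 in DP. In DP it was followed by Pramel7 at 6.0 ± 7.22 CPM per kb.

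The 3 Oct4+ libraries differed among themselves, and the members did so together. Oct4+ replicate 3 was the highest for 16 of the 17 members, and replicate 1 for Pramel1. The summed level of 12 markers of 2-cell-like cells, none of them a member, ran in the same order, at 497, 958 and 1650 CPM in replicates 1 to 3, against 9.60 to 31.5 CPM in DP and 1.71 to 5.28 CPM in Pdgfra+. The 12 epiblast markers did not, at 5940, 4340 and 4920 CPM. The feeder markers ran in the opposite order, at 150, 21 and 8.31 CPM, and the part of feeder cells was not tested. All 12 markers of 2-cell-like cells had reads in Oct4+ and DP, and 1 had none in Pdgfra+. Their part in the members' levels was not tested in the bulk libraries.

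DP against Oct4+ asks where the OCT4-positive endoderm stands relative to the de-differentiated cells. Of the 17 members, 13 were lower in DP and none higher, where 14.6% of all genes tested were lower and 13.1% higher. The same 13 had no overlap between the libraries, against 62.6% of all genes. The median log2 fold change was -5.19, against -0.04 over all genes. Both comparisons use the same Oct4+ libraries, so they are not independent. Members that passed the filter through Oct4+ weigh on this count and median too.

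Pramel20 differed most, at 0.499, 1.06 and 0.392 CPM in DP against 25.3 CPM or more in Oct4+, and fell by 6.38 on the log2 scale (SE 0.557, edgeR adjusted p 1.49e-05). Pramel31 was at 0.997, 2.95 and 2.74 CPM in DP (-5.22, SE 0.662, edgeR adjusted p 0.000128), Pramel19 at 0.748, 2.36 and 0.654 CPM (-5.73, SE 0.544, edgeR adjusted p 2.36e-05) and Pramel16 at 0.249, 1.53 and 1.05 CPM (-5.53, SE 0.606, edgeR adjusted p 0.000147). Pramel13 was at 6.61, 12 and 3.53 CPM and Pramel1 at 0.374, 0.590 and 0.915 CPM in DP, with the smallest differences of the 13 (-3.16 and -3.64). The other 7, Pramel6, Pramel11, Pramel17, Pramel18, Pramel21, Pramel24 and Pramel28, were each at or under 1.18 CPM in every DP library, with log2 fold changes from -5.94 to -4.59.

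Pramel7, Pramel14, Pramel30 and Pramel12 were not lower in DP beyond the spread between libraries. Pramel7 was at 2.99, 4.84 and 30.6 CPM in DP, overlapping with Oct4+ (1.36, SE 0.906, edgeR adjusted p 0.224), and turned to -0.31 without DP replicate 3. Pramel14 averaged 4.33 ± 1.64 CPM in DP (0.61, SE 0.898, edgeR adjusted p 0.585) and Pramel30 3.83 ± 1.88 CPM (-0.28, SE 0.95, edgeR adjusted p 0.821), both SD with n = 3. Without Oct4+ replicate 3 Pramel30 turned to 1.09 and without DP replicate 3 to 0.02. Pramel12 was at 43.3, 30.6 and 32.9 CPM in DP (-0.57, SE 0.229, edgeR adjusted p 0.055).

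**Figure D3:**
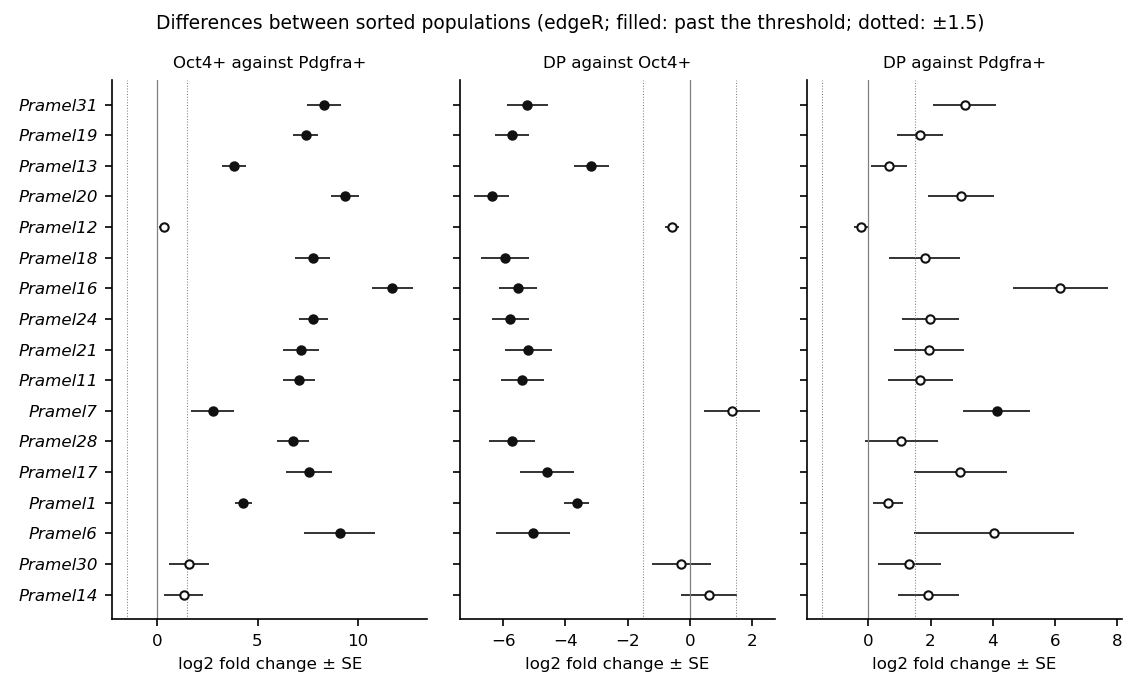
Log2 fold change ± SE of the 17 tested PRAME-like genes in each comparison of sorted populations (edgeR), filled where past the threshold, with dotted lines at ±1.5. The fitted values of genes with 0 to 3 reads in a population depend on the prior count and are no bound. All but Pramel12, Pramel14 and Pramel30 are higher in Oct4+ than in Pdgfra+, and Pramel7 is the gene past the threshold in DP against Pdgfra+.

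DP against Pdgfra+ asks how OCT4-positive endoderm differs from committed endoderm. Here 1 of the 17 members, Pramel7, was past the threshold, where 3.2% of all genes were higher and 0.691% lower. It was at 2.99, 4.84 and 30.6 CPM in DP and 0.366, 0.199 and 1.57 CPM in Pdgfra+, and its log2 fold change was 4.13 (SE 1.08, edgeR adjusted p 0.0495). DP replicate 3 stood far above the other libraries, and every DP library above every Pdgfra+ library. The size without it was 2.43 and the call was lost (edgeR adjusted p 0.178), as it was without DP replicate 2, any of the Pdgfra+ libraries or Oct4+ replicate 1 or 2 (edgeR adjusted p between 0.0517 and 0.135) and in a fit of the 6 libraries compared (edgeR adjusted p 0.0664).

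Of the 17 members, 7 had no overlap between DP and Pdgfra+, all higher in DP. This share is near the 34.2% of all genes without overlap in either direction. The 7 were Pramel7, Pramel14, Pramel16, Pramel20, Pramel21, Pramel24 and Pramel31, and 4 members had an unadjusted p under 0.05. Pramel20, Pramel21 and Pramel24 had only 2, 3 and 4 reads in Pdgfra+. The median was 1.93, or 1.81 with Pramel16 and Pramel6 at their lower bound, against 0.02 over all genes. Pramel16 had 23 reads in DP and none in Pdgfra+, at least 8.83-fold higher (edgeR adjusted p 0.0526), and Pramel31 was at 0.997, 2.95 and 2.74 CPM against 0, 0.697 and 0 CPM (3.10, SE 1.0, edgeR adjusted p 0.0918). Same-numbered libraries of these 2 populations deviated in part together (correlations 0.271 to 0.477) and were taken as paired. With the replicate block on all 9 libraries, Pramel16 and Pramel31 passed too (edgeR adjusted p 0.0263 and 0.0402), for 3 members in all. That block also covers Oct4+, where such correlations were -0.0728 to 0.152. The block on the 6 libraries compared called Pramel7 alone. Pramel12 had a lower fitted value in DP, unlike the other 16 members tested (-0.22, SE 0.229, edgeR adjusted p 0.576).

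Placed between the other populations on mean log2 CPM, with Pdgfra+ at 0 and Oct4+ at 1, DP stood at a median of 0.189 over the 14 members higher in Oct4+, against 0.236 over the 2455 genes higher there. The scale holds a prior count of 2, which weighs on members with few reads, such as Pramel28 with 4 in DP and 2 in Pdgfra+. The members ran from 0.058 for Pramel28 to 0.348 for Pramel31, and Pramel7 stood at 1.34, a value that rests on DP replicate 3, without which its DP level was below that of Oct4+ (log2 fold change -0.31).

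Partners of the family were followed as a list of known functions. The CUL2 ligase subunits were transcribed in every population, with Cul2, the scaffold, at 64.0 to 87.7 CPM in Pdgfra+ and DP and 120.0 to 171 CPM in Oct4+. The adaptors Elob and Eloc and the RING subunit Rbx1 did not pass the test in any comparison. Of the 11 partners tested, 2 were past the threshold in Oct4+ against Pdgfra+, both higher, a share near the 17.3% of all genes higher there, and both were lower in DP than in Oct4+. Uhrf1, whose protein is the known target of PRAMEL7, was at 339, 289 and 255 CPM in Oct4+ against 78.2, 109 and 96.9 CPM in Pdgfra+ (1.63, SE 0.169, edgeR adjusted p 2.74e-05). Prdm14, a regulator of the naive and germline states, was at 110.0, 30.5 and 45.3 CPM against 0.488, 0.199 and 0.209 CPM (7.68, SE 0.710, edgeR adjusted p 1.46e-05), and was the only partner past the threshold in DP against Pdgfra+ (3.10, SE 0.794, edgeR adjusted p 0.0468). Dnmt1, the maintenance methyltransferase, and the LIF pathway genes Stat3, Lifr, Il6st and Socs3 were not past the threshold in any comparison. Closest among them was Lifr, the LIF receptor, at 1.38 in DP against Oct4+ (edgeR adjusted p 0.00051), under the fold limit.

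Single cells show how many cells carried these transcripts. Each condition had 1 library, so no test was made, and all intervals are 95% intervals of counting error. Clusters were built with the members left out and named from marker lists. Endoderm-like cells (clusters 0, 1, 3 and 5) made 25.8% of -4OHT and 97.1% of +4OHT, and epiblast-like cells (clusters 4 and 6) 31.6% of -4OHT. Cluster 2, with 2133 -4OHT cells, had all 12 epiblast markers raised but held the trophoblast gene Eomes among its leading genes and stays unnamed, as does cluster 7, with 37 and 51 cells. Trophectoderm-like cells (clusters 8 and 10, led by Esx1, Ascl2 and Cdx2) numbered 5 and 98, and fibroblast-like cells with feeder markers (cluster 9) 19 and 31. Of the 8 trophectoderm markers, 3 were raised in cluster 8 and 5 in cluster 10. In +4OHT they summed to 553 UMI CPM in cluster 8 and 2240 in cluster 10, against 1160 in endoderm-like cells. The name of cluster 8 is therefore less certain.

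Over all cells the family stood at 18.9 UMI CPM (18.1 to 19.8) in -4OHT and 11 (10.3 to 11.7) in +4OHT. Without Pramel12 the rates were 15 (14.3 to 15.8) and 3.49 (3.11 to 3.89). By class, again without Pramel12, the rate was 34.8 (32.8 to 37.0) in epiblast-like cells and 6.16 (5.14 to 7.32) in endoderm-like cells of -4OHT. Cluster 2, which is unnamed but had all 12 epiblast markers raised, was at 5.41 (4.74 to 6.14). Without the cells that had 2 or more UMIs of the Zscan4 genes, the epiblast-like rate was 14 (12.7 to 15.4). In +4OHT the rate was 0.931 (0.739 to 1.16) in endoderm-like cells, 43.6 (34.2 to 54.8) in the 98 trophectoderm-like cells and 237 (201 to 277) in the 51 cells of cluster 7, where it was 117 (91.7 to 147) without its 2 Zscan4-positive cells. A UMI of a member other than Pramel12 was found in 20.6% of epiblast-like and 6.92% of endoderm-like -4OHT cells, and in 1.11% of endoderm-like +4OHT cells, with a median of 17758, 14345.5 and 12588.5 UMIs per cell. In feeder cells, 2 of 19 and 2 of 31 cells had one, at 26682 and 29698 UMIs per cell. These cells also carried the endoderm markers, at a summed 5210 UMI CPM in -4OHT and 12000 in +4OHT. They are therefore no clean background for the members. With every cell thinned to 5000 UMIs, which left out 16, 46 and 105 shallower cells, the shares were 8.37%, 2.57% and 0.366%, and feeders of -4OHT had 0 of 19, which by the limit of 3 counts allows a share of up to 15.8%.

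The members fell into different cells, and most of them into very few. Cells with 2 or more UMIs of the Zscan4 genes numbered 85 of 5152 in -4OHT, 1.65% of the cells and 1.64% of all UMIs. They held 47.4% of the member UMIs other than Pramel12 (686 of 1446, 44.8% to 50.1%), at 435 UMI CPM. By Zscan4 count, the rate was 7.64 UMI CPM (7.09 to 8.23) in cells with 0, 21.3 (16.2 to 27.5) with 1, 152 (130.0 to 178) with 2 to 9 and 1010 (927 to 1100) with 10 or more. The rate of Pramel12 in the same bins was 3.85, 3.31, 7.57 and 3.86. Of the 85 cells, 62 lay in cluster 4, 71 had a member other than Pramel12, and 40 had 3 or more members. The most in 1 cell was 13 members. Their median depth was 16562 UMIs against 17681 in the other cells.

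**Figure D4:**
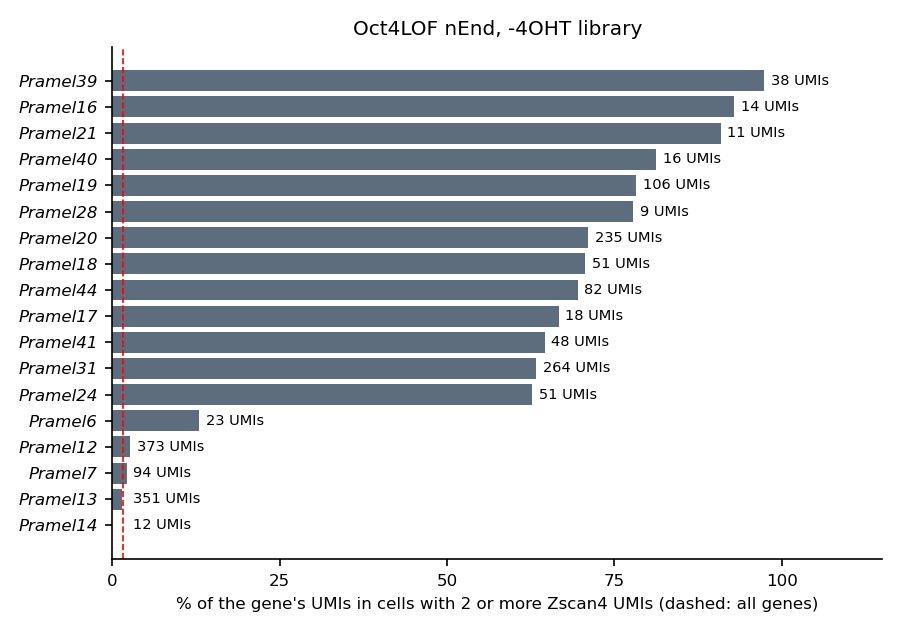
Percent of each gene's -4OHT UMIs that lie in cells with 2 or more Zscan4 UMIs, for the 18 PRAME-like genes with at least 10 UMIs over both libraries, with the gene's UMI count beside its bar and the percent over all genes (1.64%) as a dashed line. In 13 genes the bar runs from 62.7% to 97.4%, and in Pramel6, Pramel12, Pramel7, Pramel13 and Pramel14 from 0% to 13%. The cut of 10 UMIs can be passed through the Zscan4-positive cells alone.

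Of the 18 members with at least 10 UMIs, 13 had between 62.7% and 97.4% of their -4OHT UMIs in those 85 cells. The cut of 10 UMIs can be passed through these cells alone, so the count of 13 and its range are partly set by it. Pramel16, Pramel21 and Pramel39 had 1 UMI each in the other -4OHT cells. Pramel31 had 264 UMIs in 105 cells, 63.3% in the 85 and 64 in 1 cell. Pramel20 had 235 in 91 cells, 71.1% in the 85 and 43 in 1 cell. Both stood at 106 UMI CPM (90.5 to 123) in the 85 cells. Pramel19 had 106 UMIs in 53 cells (78.3%), Pramel18 51 in 25 cells (70.6%) and Pramel24 51 in 30 cells (62.7%). The chromosome 5 members belonged here as well, with 97.4% of 38 UMIs for Pramel39, 69.5% of 82 for Pramel44, 64.6% of 48 for Pramel41 and 81.2% of 16 for Pramel40.

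In +4OHT, 3 of 6298 cells had 2 or more Zscan4 UMIs, 2 in cluster 7 and 1 in cluster 10, and they held 27.6% of the member UMIs other than Pramel12. All 16 UMIs of Pramel31 came from 1 cell, as did all 16 of Pramel39. The 22 UMIs of Pramel18 came from 3 cells and the 48 of Pramel19 from 7.

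Pramel13 had another pattern. In -4OHT most of its UMIs were spread over the epiblast-like cells, at 6.81 UMI CPM (5.91 to 7.80) in 184 of 1628 cells (11.3%), no cell of the library with more than 3, and 1.42% of its UMIs lay in the Zscan4-positive cells. The 37 cells of cluster 7 in -4OHT were at 22.3 (9.64 to 44.0), with 7 cells. In cluster 2 it was at 2.60 (2.15 to 3.13) and in endoderm-like cells at 0.914 (0.550 to 1.43). In +4OHT its highest rates were in trophectoderm-like cells, at 41.8 UMI CPM (32.7 to 52.8) in 41 of 98 cells, and in the unnamed cluster 7, at 46.5 (31.6 to 65.9) in 18 of 51 cells. Endoderm-like +4OHT cells stood at 0.575 (0.426 to 0.758), and 1 of 31 feeder cells had a UMI. Median depths were 15920.5, 11529, 12588.5 and 29698 UMIs in these 4 groups, and after thinning 21 of 97 trophectoderm-like cells kept a UMI. The 98 cells come from 1 library, and 49 of them are of cluster 8, whose name is less certain.

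Pramel7 was mostly found in endoderm-like cells of the culture without 4OHT. Of its 94 UMIs in -4OHT, 71 were in cluster 5, the endoderm-like cells led by Amn and Cubn, receptors of visceral endoderm, where 47 of 731 cells (6.43%) had a UMI, at 5.36 UMI CPM (4.19 to 6.77). Epiblast-like cells were at 0.491 (0.275 to 0.810) and clusters 0 and 1 of -4OHT together at 0.140. Cluster 2, deeper at a median of 19467 UMIs per cell, was at 0.0913 (0.0249 to 0.234), so that the rate in cluster 5 lay above those of the epiblast-like cells and of clusters 0, 1 and 2 beyond counting error. Cluster 3 of -4OHT was at 5.0 (0.605 to 18.1), from 2 UMIs of 1 cell. The 19 feeder cells had 1 UMI, 5.26% of cells, at 1.90 (0.0482 to 10.6). Pramel14 followed the same cells of -4OHT at a lower level, with 11 of its 12 UMIs in cluster 5. In +4OHT its 6 UMIs lay in clusters 0 and 1, where Pramel7 had 3 of its 15. Pou5f1 in -4OHT was at 19.5 UMI CPM (17.2 to 22) in cluster 5 against 1.12 (0.231 to 3.27) and 4.70 (2.91 to 7.19) in clusters 0 and 1. Prame, the namesake of the family, had 9 UMIs in -4OHT, 7 of them in cluster 5. Of the 11 endoderm markers, 3 were raised in this cluster. In -4OHT they summed there to 12800 UMI CPM, against 18000 and 16200 in clusters 0 and 1 and 345 in cluster 4. The epiblast markers summed to 3380, against 693, 828 and 6310 in the same order. Cluster 5 thus carried markers of both lists.

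Endoderm-like cells of +4OHT had less Pramel7, at 0.172 UMI CPM (0.0965 to 0.284) against 3.56 (2.80 to 4.47) in -4OHT, a ratio of 0.0484 (0.0258 to 0.0851) between the libraries. Different clusters hold this class in the libraries. Cluster 5 holds 731 of the 1330 -4OHT cells and 35 of the 6118 +4OHT cells, and clusters 0, 1 and 3 hold the others. Within clusters 0 and 1, 1 UMI in -4OHT and 3 in +4OHT gave a ratio of 0.292 (0.0235 to 15.4), so that no difference was detectable at this depth. The number of cluster 5 cells and the deletion cannot be told apart with 1 library each. Pramel6, the neighbour of Pramel7, was in other cells, with 18 of its 23 UMIs in cluster 4 and none in 1330 endoderm-like -4OHT cells, which by the limit of 3 counts allows up to 0.226% of cells with a UMI.

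**Figure D5:**
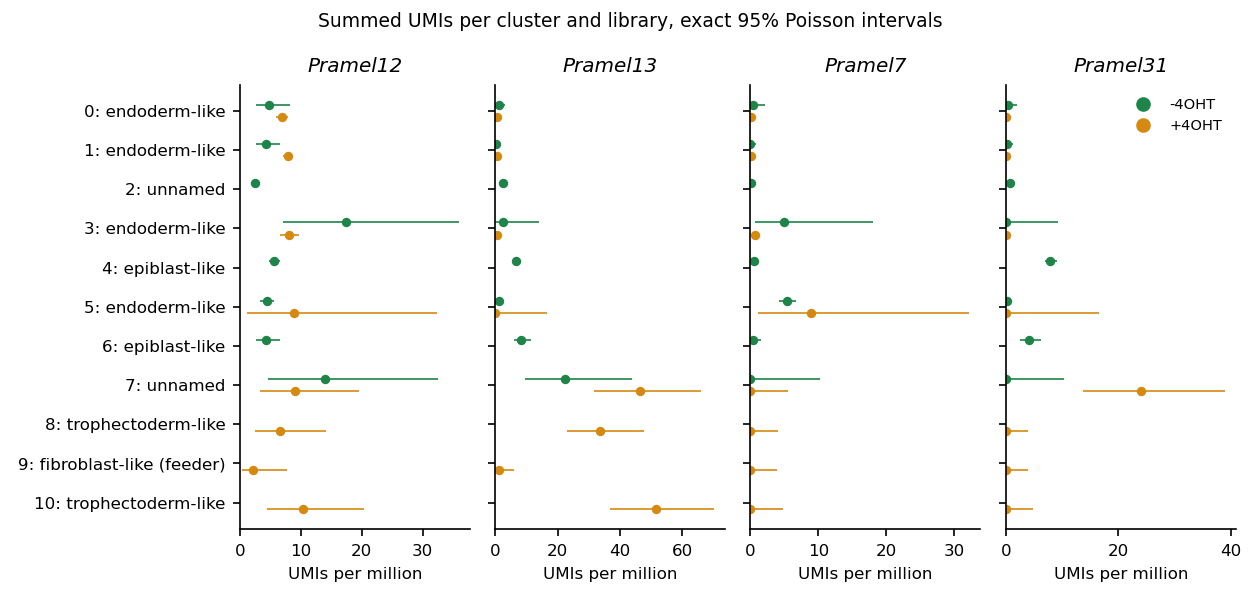
UMI CPM of 4 PRAME-like genes in each cluster of -4OHT (green) and +4OHT (orange) with exact 95% Poisson intervals, for clusters with at least 30 cells in the library. Pramel12 is at 2.12 to 17.5 in every cluster, Pramel13 is highest in clusters 7, 8 and 10 of +4OHT, Pramel7 is at 5.36 in cluster 5 of -4OHT (its values in cluster 3 of -4OHT and cluster 5 of +4OHT come from 2 UMIs of 1 cell each), and Pramel31 is at 7.95 and 4.09 in the epiblast-like clusters 4 and 6, its cluster 7 value coming from 1 cell.

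Pramel12 was found in every class with more than 5 cells, as in every sorted population, and never with more than 3 UMIs in a cell. In -4OHT it was at 4.67 UMI CPM (3.79 to 5.69) in endoderm-like, 5.37 (4.58 to 6.25) in epiblast-like and 2.42 (1.98 to 2.93) in cluster 2 cells. In +4OHT it was at 7.55 (6.98 to 8.15) in endoderm-like cells, 1.62 times (1.31 to 2.02) the -4OHT rate, and at 1.67 times (1.17 to 2.46) within clusters 0 and 1. Feeder cells were at 1.90 (0.0482 to 10.6) and 2.12 (0.257 to 7.67), from 3 UMIs in all, with 5.26% and 6.45% of cells against 6.69% and 10.1% of endoderm-like cells at a lower depth. A level above that of the feeder cells, which carried endoderm markers too, was not detectable at their number. Cluster 2 lay below the endoderm-like and epiblast-like cells of the same library beyond counting error.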

How the data were processed

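Gene counts of 9 sorted bulk libraries (directional library kit) and UMI counts of 2 droplet libraries were used as the authors deposited them. For the bulk data the aligner, counting tool, annotation and strand setting were not given in the sources used here. Notes of the submitters name Cell Ranger and mm10 for the droplet counts. The bulk table ended in 35 blank lines, which were left out, and 0 columns belonged to other samples. The members and gene lists were chosen with earlier results of these data known.

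Bulk counts were fitted with edgeR 4.0.16 in R 4.3.3 (filterByExpr, TMM, group as the only term, all 9 libraries), which left 14185 genes, and compared by its quasi-likelihood test with Benjamini-Hochberg adjustment over all genes. The threshold was an adjusted p under 0.05 and a log2 fold change beyond 1.5, after the study's methods, which used DESeq2 (1.42.0 here, as an alternative). The fit was tested on simulated data. The SE is the log2 fold change over the root of F. Libraries of a group differed beyond sampling noise in all 9 pairs. Deviations of same-numbered libraries correlated at 0.271, 0.477 and 0.321 between DP and Pdgfra+, which were therefore taken as paired, and at -0.0728 to 0.152 otherwise.

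Barcodes with at least 1000 genes and under 10% mitochondrial UMIs were kept, and Scrublet doublets removed (172 in -4OHT, 1 in +4OHT, where the caller has not worked). Cells were clustered in scanpy 1.11.5 (2000 variable genes without the members, 20 components, Leiden resolution 0.5). One cluster was split again, and the Zscan4 limits other than 2 UMIs and the DUX motif were added, after the data had been seen. Rates carry exact Poisson and shares exact binomial intervals, which cover counting error only. Members named are those past the threshold in a comparison or with 10 UMIs, in order of level. Promoters came from RefSeq and transcripts from GENCODE.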

Additional observations from a re-analysis of the deposited data

How the results depend on the processing

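Of 949 values recomputed for 78 results, 887 kept their direction and side of the threshold or moved by less than the spread between libraries or the counting interval. The members higher in Oct4+ than in Pdgfra+ numbered 13 to 14 and those lower in DP than in Oct4+ 13 without any 1 library. In DP against Pdgfra+ the count of 1 became 4 in DESeq2 and 4 with no filter on low counts (Pramel16, Pramel20 and Pramel31 added), 3 with the replicate block on 9 libraries, 1 (Pramel7) with the replicate block when Oct4+ was left out of the fit, 0 in a fit of only the 6 libraries compared, and 0 to 2 without 1 library. With the replicate block, 98 of 102 values kept their call, and Pramel30 in DP against Oct4+ turned from -0.28 to 0.195 on the 6 libraries compared. Without 1 library each, log2 fold changes that crossed 0 ranged from -0.72 to 1.09 for that gene (0.02 without DP replicate 3), from -0.31 to 2.16 for Pramel7 in DP against Oct4+, from -0.016 to 1.74 for Pramel14 in Oct4+ against Pdgfra+ and from -0.15 to 1.58 for Pramel28 in DP against Pdgfra+, none past the threshold. Replicate numbers do not pair Oct4+ with the other populations. The causes were not tested.

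Leaving out Pramel12 moved the summed level to 9.77 CPM in Pdgfra+ and 37.1 in DP, and the summed UMI CPM to 15 and 3.49 in all cells of -4OHT and +4OHT, 6.16 and 0.931 in endoderm-like cells, 34.8 in epiblast-like cells and 5.41 in cluster 2. All deposited barcodes gave 22.7 in -4OHT. Cells dropped by the filters have no cluster, so this alternative and the one that keeps doublets were run over whole libraries. Thinning to 5000 UMIs lowered the share of cells with any member to 6.20% and 4.52% over all cells, 5.06% and 4.12% in endoderm-like, 10.8% in epiblast-like, 24.7% in +4OHT trophectoderm-like cells, 3.41% in cluster 2 and 16.7% in cluster 7 of +4OHT. The share of member UMIs other than Pramel12 in Zscan4-positive cells was 51.5% from 1 UMI, 41.4% from 5 UMIs and 55.3% over all barcodes. Without the split of a cluster Pramel13 was at 31.2 UMI CPM in the +4OHT cells of that cluster.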
